A study of Mus musculus with 8 samples.

Results

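The 38 genes described here are products typical of monocytes and macrophages: Fc receptors, pattern recognition and scavenger receptors, receptors for cell clearance, complement C1q, lysosomal proteases and regulators of the lineage. They were taken from a list of gene symbols that was chosen with earlier results of these data known. Each was measured by the 1 probe set that carried its symbol alone in the platform annotation. All 38 listed genes were found among the 19938 symbols tested. Affymetrix whole-transcript arrays were hybridised with total RNA from C57BL/6 mouse cells. The cells carried an empty vector, full-length NUP98-HOXA9, NUP98-HOXA9 delFG1 or NUP98-HOXA9 delFG2; each of these 4 groups has 2 arrays, numbered 1 and 2 in the labels. NUP98-HOXA9 is a leukaemia fusion protein that joins the phenylalanine-glycine (FG) repeats of the nucleoporin NUP98 to the homeodomain of HOXA9, and the design asks which genes it regulates through its NUP98 part. All groups share the strain. Not given in the sources used here are the kind of cell, the age of the mice, the residues removed in delFG1 and delFG2, the vector and the time after its introduction. The labels do not state whether a group's arrays stem from separate cultures, so p-values reflect the spread among these arrays alone, and that spread may be technical.

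Levels are given as log2(intensity + 1), where intensity is the deposited linear brightness of a probe set, and differences between groups are on that log2 scale. Median intensity lay between 80.7 and 83.2 on the 8 arrays, and the median probe set had a mean level of 6.73. No detection calls were used, and probe sets differ in how brightly they read the same amount of RNA, so levels are compared between groups for a gene and not between genes. The means of 6 of the 38 genes lay below that of the median probe set: Cd163 (5.07), C1qc (5.22), C1qa (5.58), C1qb (5.62), Maf (6.23) and Cx3cr1 (6.32). A gene is said to have risen or fallen only where limma gave an adjusted p (Benjamini-Hochberg over all 21789 probe sets tested) of at most 0.05. Since arrays with the same number deviated together, 2 fits stand side by side: one on the group means alone and one with the array number as a replicate block.

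Monocytes leave the bone marrow, enter tissues and can become macrophages, which engulf microbes, dead cells and oxidised lipoproteins and break them down in lysosomes. Fc receptors bind antibody-coated particles, Toll-like and C-type lectin receptors bind microbial products, scavenger receptors take up modified lipids, and many of these receptors signal through ITAM adaptors such as TYROBP. The transcription factor PU.1 directs much of this gene programme together with AP-1 factors, and factors of the MiT/TFE family act on lysosomal genes. HOXA9, the DNA-binding part of the fusion, is known to bind DNA with PBX proteins and to act against myeloid maturation when it is kept at a high level.

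The promoter windows below are those of the genes that changed in at least 1 comparison and that held a match to 1 of 4 short motifs of these factors, and they show where such letters lie before genes of 4 different roles. Each is the 250 bases before the annotated gene start, 5′ to 3′ on the strand of the gene, from RefSeq on the build GRCm38.p6, with the matched letters in capitals. The window of Fcgr4, an activating IgG receptor, is chr1:171018676-171018925 on the + strand, that of Cd68, a glycoprotein of the lysosomal membrane, chr11:69666171-69666420 on the - strand, that of Trem2, a lipid-sensing receptor paired with TYROBP, chr17:48346151-48346400 on the + strand, and that of Ctsd, the aspartic protease cathepsin D, chr7:142387828-142388077 on the - strand.

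Fcgr4: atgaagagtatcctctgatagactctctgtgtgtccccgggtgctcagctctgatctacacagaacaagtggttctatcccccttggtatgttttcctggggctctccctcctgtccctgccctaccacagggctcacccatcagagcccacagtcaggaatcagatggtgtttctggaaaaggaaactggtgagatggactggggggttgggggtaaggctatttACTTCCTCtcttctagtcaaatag
Cd68: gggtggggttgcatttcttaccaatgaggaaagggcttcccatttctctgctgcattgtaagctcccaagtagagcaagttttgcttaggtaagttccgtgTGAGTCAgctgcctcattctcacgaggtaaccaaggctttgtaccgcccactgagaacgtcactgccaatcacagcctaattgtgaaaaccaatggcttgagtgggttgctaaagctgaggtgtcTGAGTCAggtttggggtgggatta
Trem2: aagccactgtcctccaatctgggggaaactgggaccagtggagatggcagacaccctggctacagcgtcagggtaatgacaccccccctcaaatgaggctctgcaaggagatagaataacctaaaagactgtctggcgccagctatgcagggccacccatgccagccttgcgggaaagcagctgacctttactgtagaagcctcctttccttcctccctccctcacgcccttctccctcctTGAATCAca
Ctsd: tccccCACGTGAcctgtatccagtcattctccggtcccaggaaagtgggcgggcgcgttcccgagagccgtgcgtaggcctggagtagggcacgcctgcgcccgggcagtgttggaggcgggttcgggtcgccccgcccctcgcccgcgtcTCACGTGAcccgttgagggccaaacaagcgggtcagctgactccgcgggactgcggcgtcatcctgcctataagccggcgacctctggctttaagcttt

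In the Fcgr4 window the capitals are the PU.1 motif GAGGAAGT, read on the opposite strand at -24 to -17 from the start. In the Cd68 window they match the AP-1 pattern TGANTCA, where N is any base, at -149 to -143 and -24 to -18, both times as TGAGTCA. The Trem2 window matches that pattern at -9 to -3 with another middle base, as TGAATCA. In the Ctsd window they are the MiT/TFE motif TCACGTG. At -245 to -239 it is read on the opposite strand, where the printed letters are CACGTGA. An overlapping pair lies at -99 to -93 on the strand of the gene and at -98 to -92 on the opposite strand. Windows were at hand for 29 of the 38 genes and for 27025 genes in all, and both strands were searched. Of the 29 windows, 2 held the PU.1 motif (Fcgr4 and C1qc), against 2.79% of all windows; 3 held the AP-1 motif (Cd68, Itgax and Trem2), against 7.82%; 1 held the MiT/TFE motif (Ctsd), against 3.58%; and 1 held the HOX-PBX motif TGATTNAT (Cd163), against 3.31%. A match is a description of these letters and says nothing of binding in these cells. Several of the genes lie side by side: Fcgr2b, Fcgr4 and Fcgr3 on chromosome 1, C1qb, C1qc and C1qa on chromosome 4, and Clec4n, Clec4d and Clec4e on chromosome 6 have 0 protein-coding genes between them.

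Over the 8 arrays, the empty vector group had the highest mean of the 4 groups for 31 of the 38 genes (81.6%), against 26.6% of all probe sets tested. Full-length NUP98-HOXA9 had the highest mean for 5 of the genes (13.2%), delFG1 for 2 (5.26%) and delFG2 for 0. Over all probe sets these shares were 26.7%, 27.3% and 19.4%. The lowest mean lay with delFG1 for 16 genes (42.1%), full-length for 15 (39.5%), delFG2 for 5 (13.2%) and the empty vector for 2 (5.26%). Over all probe sets the lowest mean lay there in 20.1%, 21.6%, 21.4% and 36.9%, in the same order. Array 2 of the empty vector was the highest single array for 29 genes, a count for which the share over all probe sets was not computed. The widest ranges over the 8 arrays were those of Nr1h3 (1.80), Msr1 (1.75), Mrc1 (1.67), Ccr2 (1.44) and Mertk (1.42), and the narrowest those of Fcgr2b (0.10), Cd163 (0.12) and C1qc (0.17). In bulk RNA of this kind, fewer cells of a type and less RNA per cell cannot be told apart.

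**Figure D1:**
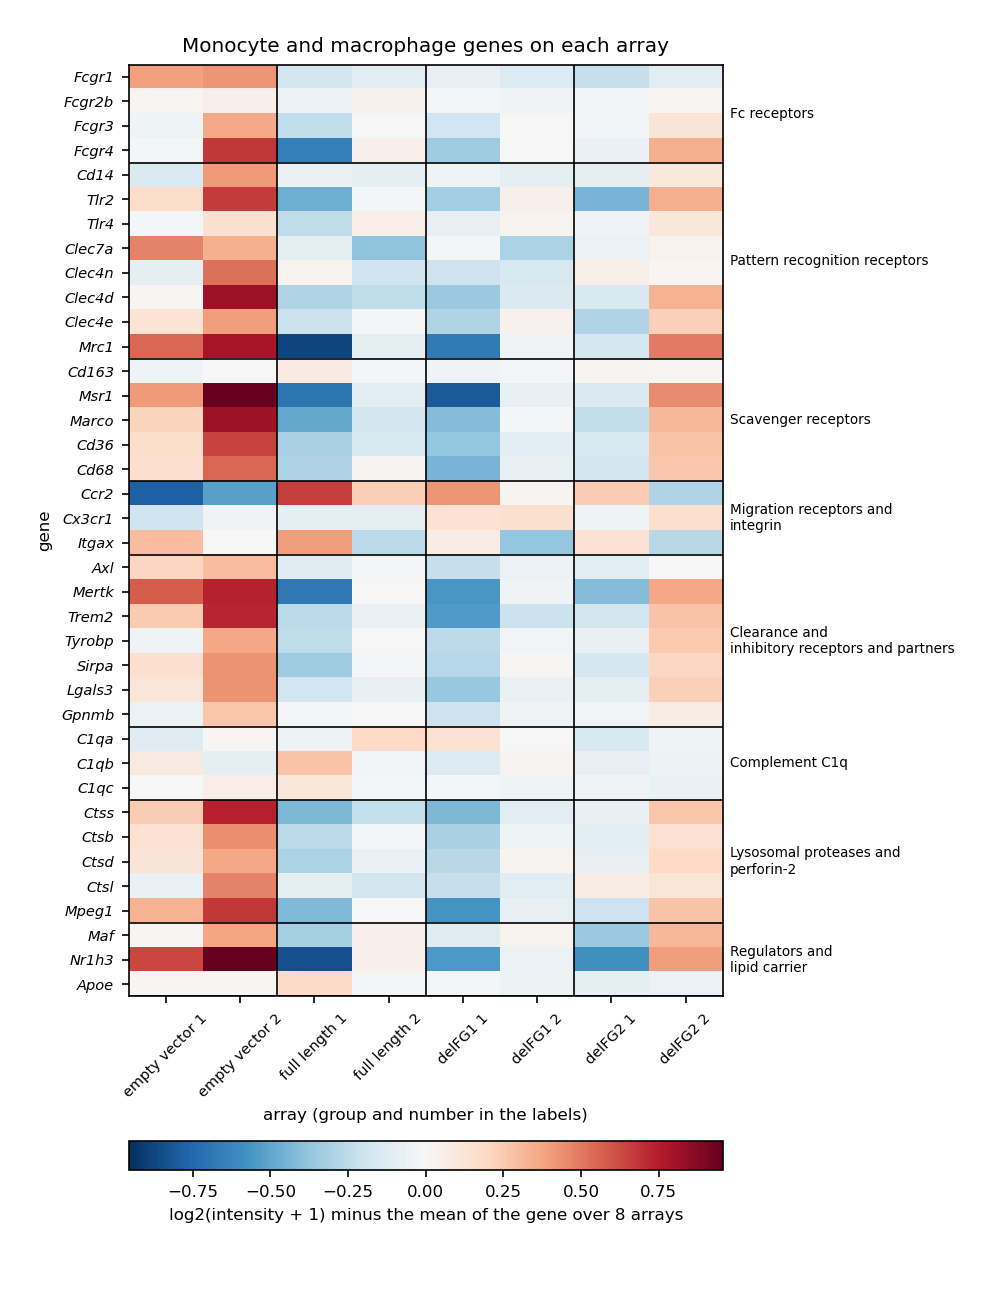
Level of each of the 38 genes (rows, grouped by role) on each of the 8 arrays (columns, named by group and number), as log2(intensity + 1) minus the mean of that gene over the 8 arrays. Red is above and blue below the gene's own mean; most rows are red in the empty vector columns and blue in the full-length and delFG1 arrays numbered 1, with Ccr2 the other way round and the C1q genes pale.

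Full-length NUP98-HOXA9 was compared with the empty vector to see which of these genes the whole fusion changed. With the replicate block 23 of the 38 genes fell and 1, Ccr2, rose, which is 63.2% of them against 6.61% of all probe sets (4.43% lower and 2.18% higher). The falls lay between 0.28 for Fcgr3 and 1.19 for Nr1h3, and took in scavenger and pattern recognition receptors, receptors for dead cells and lysosomal proteases. Without the block 0 of the 38 passed by limma, against 0.124% of all probe sets, while 20 had an unadjusted p under 0.05, as did 9.54% of all probe sets. The median difference of the 38 genes was -0.39, and that of all probe sets 0.02. In 21 genes both arrays were lower with the fusion than with the empty vector, and in 1 both were higher, so that 57.9% did not overlap, against 39.1% of all probe sets (15.6% lower and 23.4% higher). Within the arrays numbered 1 the median difference was -0.32, and within those numbered 2 it was -0.48.

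Scavenger receptors fell in 4 of 5 cases. Msr1, a class A scavenger receptor for oxidised lipoproteins, had levels of 10.25 and 10.79 on the empty vector arrays and 9.15 and 9.73 on the full-length arrays (numbers 1 and 2 in turn, here and below). Every full-length array was below every empty vector array. The fall was 1.08 (standard error 0.08, a 2.11-fold lower intensity), with an adjusted p of 3.68e-05 by limma with the block and 0.319 without it. Marco, another class A receptor that binds bacteria and particles, went from 7.10 and 7.70 to 6.40 and 6.71, also without overlap. It fell by 0.85 with an adjusted p of 0.0011 with the block and 0.331 without. Cd36, a receptor for fatty acids and oxidised lipoproteins, fell by 0.64 (adjusted p = 0.00167 with the block, 0.331 without), and Cd68 by 0.49 (0.000382 and 0.474). Cd163, the receptor for haemoglobin bound to haptoglobin, lay between 5.03 and 5.15 on all 8 arrays and differed by 0.05.

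Of the 8 pattern recognition receptors, 5 fell with the block. Mrc1, the mannose receptor, had levels of 10.91 and 11.15 with the empty vector and 9.48 and 10.27 with the full-length fusion, and the groups did not overlap. Its fall was 1.15 (standard error 0.11, 2.22-fold), with an adjusted p of 0.000214 with the block and 0.281 without it. Clec4d, a C-type lectin that pairs with Clec4e, fell by 0.68 (adjusted p = 0.0158), Tlr2, the receptor for bacterial lipoproteins, by 0.66 (0.00256), Clec7a, the beta-glucan receptor dectin-1, by 0.64 (0.00389) and Clec4e, the receptor Mincle for mycobacterial glycolipid, by 0.38 (0.0142), all with the block. For these 4 genes the adjusted p without the block was 0.42, 0.50, 0.188 and 0.559. Clec7a went from 9.87 and 9.73 to 9.31 and 9.01, with the lower value on the arrays numbered 2 in both groups. Clec4n, the receptor dectin-2 (-0.30), Cd14, the co-receptor for lipopolysaccharide (-0.21), and Tlr4, its signalling receptor (-0.16), did not pass in either fit. Clec4n was higher with the fusion among the arrays numbered 1 (0.12) and lower among those numbered 2 (-0.72), and Cd14 likewise (0.07 and -0.49).

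Receptors and partners for the clearance of dead cells and for inhibition fell in 6 of 7 cases with the block. Mertk, a kinase that binds dead cells through bridging proteins, had 8.12 and 8.27 with the empty vector and 6.85 and 7.53 with the fusion. It fell by 1.002 (standard error 0.14, 2.003-fold), with an adjusted p of 0.00197 with the block and 0.335 without it. Its relative Axl fell by less, 0.31, with little spread: 9.94 and 10.03 went to 9.62 and 9.72 (adjusted p = 0.0277 and 0.381). Trem2 fell by 0.65 (0.00171 and 0.362), and its adaptor Tyrobp by 0.29 (0.013 and 0.637). Sirpa, the receptor for the signal CD47 that holds back engulfment, fell by 0.48 (0.000643 and 0.406), and Lgals3, the sugar-binding galectin-3, by 0.40 (0.0023 and 0.417). Gpnmb, a membrane glycoprotein of macrophages, differed by -0.11 and did not pass.

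Lysosomal proteases and perforin-2 fell in 4 of 5 cases with the block. Ctss, a cysteine protease that trims antigen for presentation, had 10.28 and 10.78 with the empty vector and 9.61 and 9.81 with the fusion, without overlap. It fell by 0.82 (standard error 0.08, 1.77-fold), with an adjusted p of 0.000249 with the block and 0.228 without. Mpeg1, which encodes the pore-forming perforin-2 of phagosomes, went from 11.05 and 11.39 to 10.29 and 10.71, a fall of 0.72 (adjusted p = 0.000157 and 0.356). Ctsb, another cysteine protease, fell by 0.44 (0.000583 and 0.369), and Ctsd by 0.43 (0.000249 and 0.365), with a difference of -0.43 within each number. Ctsl, a further cysteine protease, differed by -0.33 and did not pass; the difference was -0.02 among the arrays numbered 1 and -0.65 among those numbered 2.

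The Fc receptors fell in 3 of 4 cases with the block. Fcgr1, the high-affinity IgG receptor, had 8.61 and 8.64 with the empty vector and 8.04 and 8.11 with the fusion, the least spread within groups of the receptors that fell. It fell by 0.55 (standard error 0.09, 1.46-fold), with an adjusted p of 0.00548 with the block and 0.136 without. Fcgr4 went from 8.99 and 9.68 to 8.35 and 9.05, so the groups overlapped, and fell by 0.64 with an adjusted p of 0.00525 with the block (0.53 without). Fcgr3, an activating low-affinity receptor, fell by 0.28 (0.0366 and 0.595), and Fcgr2b, the inhibitory one, lay between 11.46 and 11.57 on all 8 arrays. The Fc receptor genes on chromosome 1 resemble each other in sequence, so a signal may not belong to 1 of them alone.

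Among the regulators, Nr1h3 had the largest fall of the 38 genes. It encodes the liver X receptor alpha, a sterol sensor that turns on cholesterol export, and had 8.26 and 8.58 with the empty vector and 6.78 and 7.68 with the fusion. The fall was 1.19 (standard error 0.15, 2.28-fold), with an adjusted p of 0.00105 with the block and 0.344 without. Maf, a transcription factor of mature macrophages, differed by -0.33, and Apoe, the lipid carrier apolipoprotein E, by 0.07; neither passed. The 3 subunit genes of complement C1q, which macrophages make to tag dead cells and immune complexes, lay between 5.16 and 5.89 on all arrays, and differed by 0.12 (C1qa), 0.12 (C1qb) and 0.02 (C1qc) without a call.

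Ccr2 moved against the rest. It encodes the chemokine receptor that monocytes use to leave the marrow, and its levels were 8.58 and 8.85 with the empty vector and 10.02 and 9.60 with the full-length fusion. The rise of 1.10 (standard error 0.16, 2.14-fold) had an adjusted p of 0.00201 with the block and 0.152 without, and measured 1.44 among the arrays numbered 1 and 0.75 among those numbered 2. Leaving out the full-length array numbered 1 took the adjusted p with the block to 0.0736. The other migration genes did not pass: Cx3cr1, the fractalkine receptor, differed by 0.02, and Itgax, the integrin CD11c, by -0.07.

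Leaving out 1 array at a time, with the block, left between 13 calls when the full-length array numbered 2 was omitted and 27 when the empty vector array numbered 1 was. How many of all probe sets were called in such fits was not computed, here and below. The genes that kept their call in all 8 such fits were 10 of the 24: Cd68, Ctsb, Ctsd, Ctss, Marco, Mpeg1, Mrc1, Msr1, Nr1h3 and Sirpa.

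**Figure D2:**
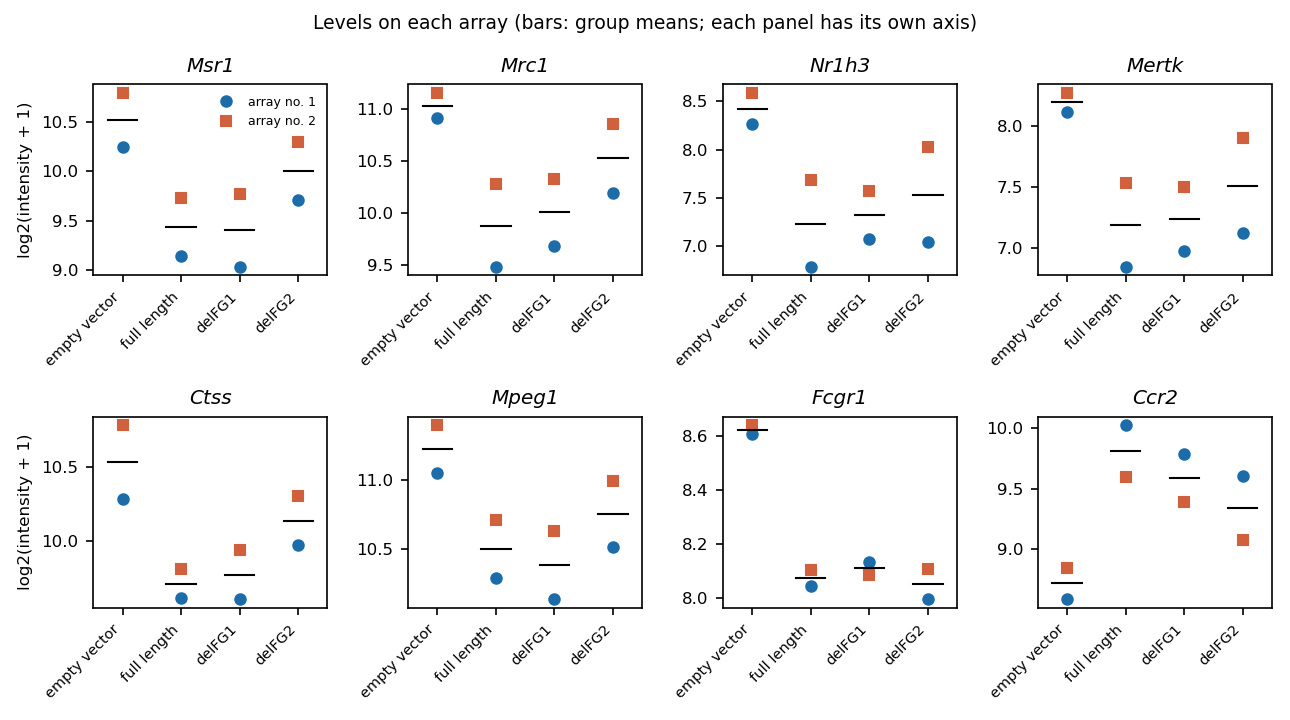
Levels of 8 genes as log2(intensity + 1) (vertical axis, its own range in each panel) in the 4 groups, with circles for the arrays numbered 1, squares for those numbered 2 and a bar for the group mean. Msr1, Mrc1, Nr1h3, Mertk, Ctss and Mpeg1 are higher on array 2 than on array 1 of every group, Fcgr1 stays near 8.1 in the 3 fusion groups, and Ccr2 is lowest on both empty vector arrays.

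The number of an array went with the level of most of these genes. In the fit with the block, 21 of the 38 were higher on the arrays numbered 2 and 1 was lower, against 11.2% of all probe sets called in either direction (6.43% higher and 4.75% lower). The median difference of number 2 from number 1 was 0.26, and that of all probe sets 0.01. Nr1h3 was higher by 0.67 (adjusted p = 0.00294), Msr1 by 0.61 (0.000151), Mrc1 by 0.59 (0.00114), Mertk by 0.54 (0.00659), Fcgr4 by 0.54 (0.00154) and Tlr2 by 0.53 (0.00102). Itgax was the gene that was lower, by 0.45 (adjusted p = 0.0029), with 8.85 against 8.55 on the empty vector arrays and 8.95 against 8.30 on the full-length ones. Fcgr1 (0.04), Clec7a (-0.16) and Ccr2 (-0.27) did not differ past the threshold. The labels do not say what the numbers stand for, and their part in the group differences was not tested beyond the block and the values within each number.

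**Figure D3:**
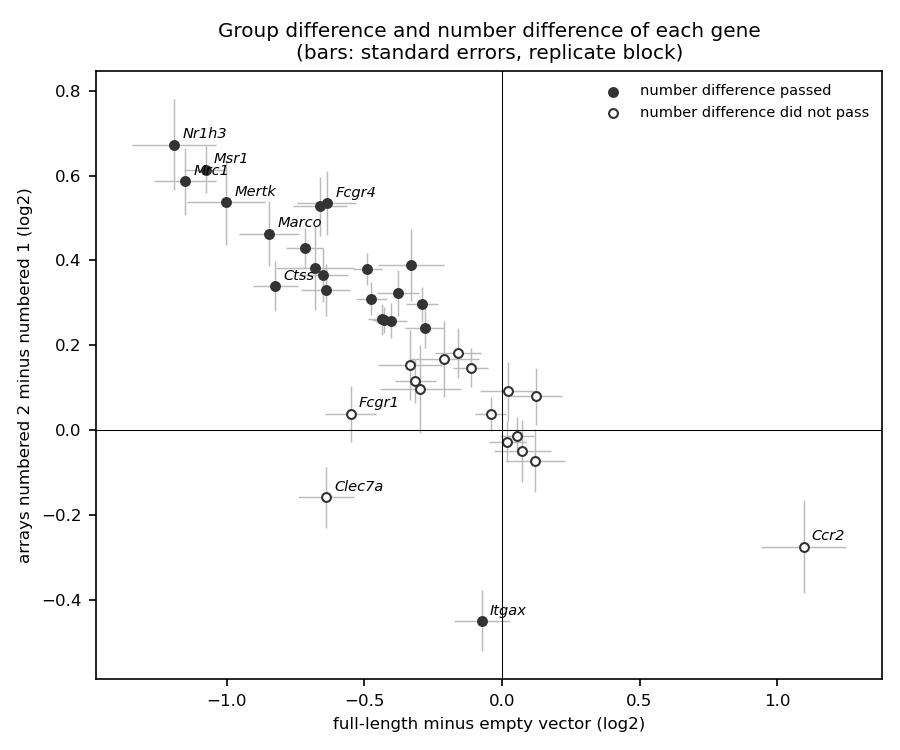
Difference between full-length fusion and empty vector (horizontal axis, log2) against the difference between arrays numbered 2 and 1 over all groups (vertical axis, log2) for each of the 38 genes, with standard errors from the fit with the block and filled points where the number difference passed. Nr1h3, Msr1, Mrc1 and Mertk are farthest to the left and among the highest, and Ccr2 is alone at the right.

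The mutant delFG1 was compared first with the empty vector and then with the full-length fusion. Relative to the vector, 22 of the 38 genes fell and Ccr2 rose with the block (60.5%, against 6.12% of all probe sets, 4.18% lower and 1.94% higher). Without the block 0 passed by limma, against 0.129% of all probe sets, and 21 had an unadjusted p under 0.05, as did 9.61% of all probe sets. The median difference was -0.39 (0.02 over all probe sets), with -0.38 within number 1 and -0.49 within number 2. This comparison and the one before it share the empty vector arrays, so their values are given side by side and their likeness is no result.

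Msr1 had levels of 9.03 and 9.77 with delFG1, below both empty vector arrays, and fell by 1.11 (standard error 0.08) with an adjusted p of 3.1e-05 with the block and 0.271 without, where the full-length fall was 1.08. Mrc1, at 9.68 and 10.33, fell by 1.02 (adjusted p = 0.000383 and 0.307), Nr1h3, at 7.08 and 7.57, by 1.10 (0.00152 and 0.361), and Mertk, at 6.98 and 7.50, by 0.95 (0.0023 and 0.325). Trem2 went from 9.74 and 10.23 to 8.95 and 9.29, a fall of 0.86 (0.000306 and 0.196), and Mpeg1 to 10.14 and 10.63, a fall of 0.83 (7.67e-05 and 0.247). Among the proteases, Ctss fell by 0.76, Ctsb by 0.47 and Ctsd by 0.37. Of the receptors, Marco fell by 0.73, Clec4d by 0.66, Cd36 by 0.65, Cd68 by 0.62, Clec7a by 0.57, Tlr2 by 0.56, Fcgr1 by 0.51, Fcgr4 by 0.50, Sirpa by 0.43, Axl by 0.39 and Clec4e by 0.39, and Lgals3 (0.48) and Tyrobp (0.31) fell too. Ccr2, at 9.79 and 9.39, rose by 0.87 (adjusted p = 0.00669 with the block, 0.225 without). Fcgr3 differed by -0.25 and did not pass (adjusted p = 0.0611 with the block). Omitting single arrays in turn in that fit left 15 calls when the delFG1 array numbered 2 was omitted and up to 28 when the empty vector array numbered 1 was, and 14 of the 23 genes kept their call in all 8 fits.

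Directly against the full-length fusion, delFG1 gave 0 calls among the 38 genes by limma in either fit, and 0 had an unadjusted p under 0.05 without the block. Of all probe sets 0.00918% passed without the block and 0.078% with it, and 2.07% had an unadjusted p under 0.05 without the block. The differences ran from -0.22 to 0.24 with a median of -0.01 (0.00 over all probe sets). The smallest p without the block belonged to Cx3cr1 (6.22 and 6.22 with full-length, 6.45 and 6.47 with delFG1, a difference of 0.24), C1qb (-0.18) and C1qc (-0.07), none of which passed. For Msr1 the full-length and delFG1 arrays interleaved, at 9.15 and 9.73 against 9.03 and 9.77. A p that misses the threshold with 2 arrays a group does not show that the levels were equal.

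The mutant delFG2 was compared with each of the other groups in turn. Against the empty vector 6 genes fell and 0 rose with the block (15.8%, against 0.505% of all probe sets in either direction and 0.399% lower); without it 0 passed by limma, against 0.00459%, and 5 had an unadjusted p under 0.05, as did 4.43% of all probe sets. Nr1h3, at 7.04 and 8.02, fell by 0.89 (standard error 0.15, adjusted p = 0.0349 with the block and 0.9997 without), without overlap with the empty vector. Fcgr1, at 7.997 and 8.11, fell by 0.57 (0.0316 and 0.87), Msr1, at 9.70 and 10.29, by 0.52 (0.0307 and 0.9997), and Mpeg1, at 10.51 and 10.99, by 0.47 (0.0236 and 0.9997). Cd68 fell by 0.32 (0.0348) and Ctsb by 0.28 (0.0437) with the block. Msr1 and Cd68 overlapped between the groups, and the difference of Nr1h3 was -1.22 within number 1 and -0.56 within number 2. Mertk (-0.68, adjusted p = 0.0706 with the block), Mrc1 (-0.51, 0.0847) and Ccr2 (0.63, 0.12) did not pass. The median of the 38 genes was -0.21 (0.01 over all probe sets), with -0.20 within number 1 and -0.29 within number 2. Calls with the block numbered 0 without the full-length array numbered 1 or 2 or without the delFG2 array numbered 1, 2 without the empty vector array numbered 1 or the delFG2 array numbered 2, 3 and 4 without the delFG1 arrays numbered 2 and 1, and 12 without the empty vector array numbered 2.

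Against the full-length fusion, delFG2 was higher for 3 genes with the block (7.89%, against 0.468% of all probe sets in either direction and 0.298% higher) and for 0 by limma without it (0.0275%), and 0 had an unadjusted p under 0.05. Mrc1 was 10.19 and 10.86 with delFG2 against 9.48 and 10.27, higher by 0.64 (standard error 0.11, adjusted p = 0.0333 with the block and 0.9995 without), with 0.71 within number 1 and 0.58 within number 2. Msr1 was higher by 0.56 (adjusted p = 0.0106), by 0.56 within each number, and Ctsd by 0.24 (0.0431). In all 3 the groups overlapped across numbers. Ctss was 9.97 and 10.30 against 9.61 and 9.81 and did not overlap, but the difference of 0.43 did not pass (0.0621). The median was 0.17 (-0.01 over all probe sets), with 0.09 within number 1 and 0.25 within number 2. Leaving out any 1 of the full-length or delFG2 arrays left 0 calls with the block, leaving out either delFG1 array left 2, and leaving out either empty vector array gave 8.

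Between the mutants, Msr1 (0.60, standard error 0.08, adjusted p = 0.0121), Mpeg1 (0.36, 0.045) and Cd68 (0.30, 0.0375) were higher with delFG2 than with delFG1 with the block, 7.89% of the genes against 0.537% of all probe sets in either direction and 0.404% higher. Neutrophil (4 of 17), mast cell (3 of 12), eosinophil (2 of 6), megakaryocyte (2 of 5) and erythroid (1 of 7) markers were higher with delFG2 in the same comparison, and their part in it was not tested. By limma without the block 0 of the 38 passed, as did 0 of all probe sets, and 0 of the 38 had an unadjusted p under 0.05, against 3.13% of all probe sets. The median difference was 0.15 (-0.01 over all probe sets), with 0.13 within number 1 and 0.19 within number 2. Calls with the block numbered 0 when either delFG2 array or the delFG1 array numbered 1 was omitted, 1 without the delFG1 array numbered 2 or either full-length array, and 10 without either empty vector array. The 6 comparisons are drawn from the same 8 arrays and are not independent of each other.

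**Figure D4:**
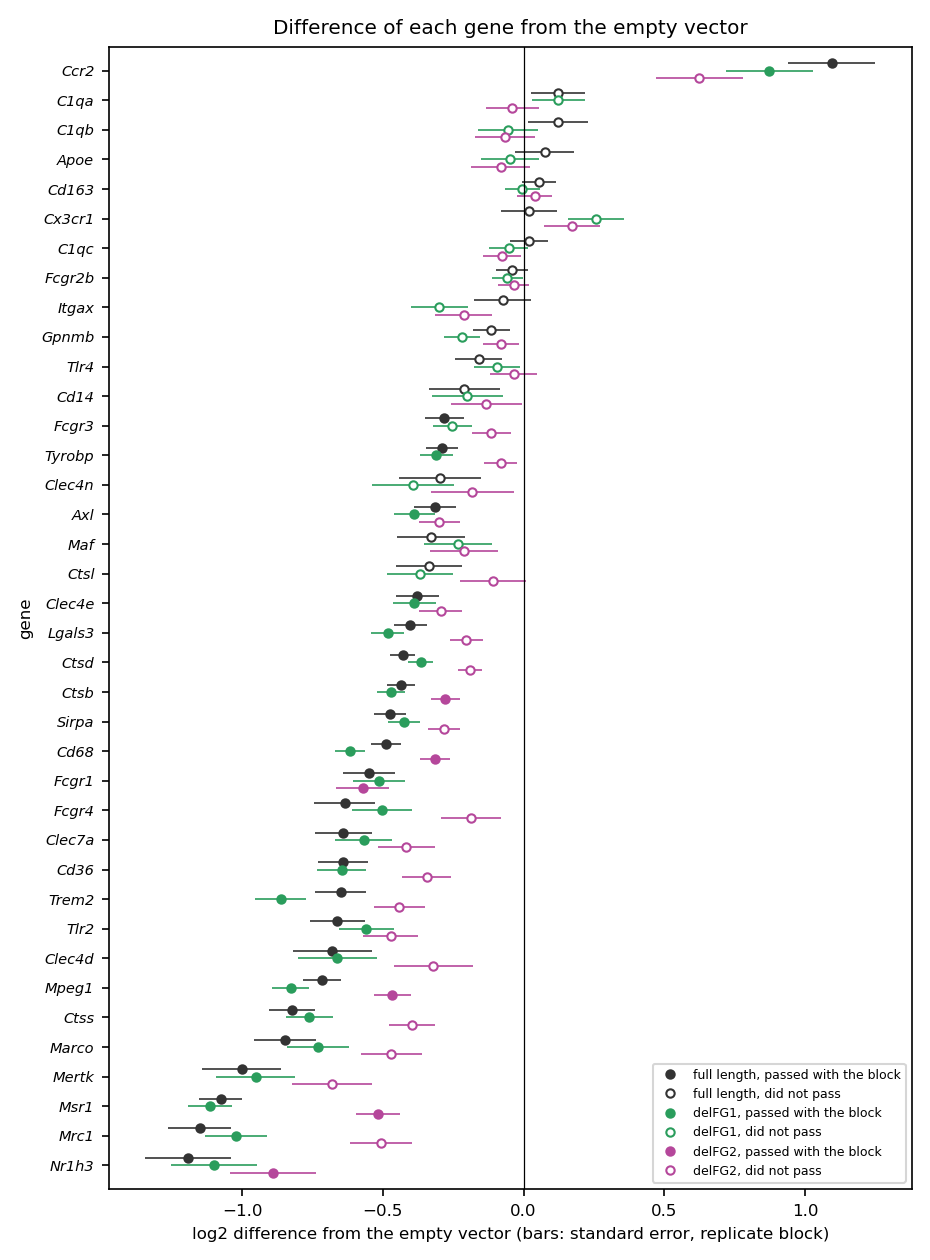
Difference of full-length, delFG1 and delFG2 from the empty vector (horizontal axis, log2) for each of the 38 genes (vertical axis, ordered by the full-length difference), with bars for the standard error in the fit with the replicate block and filled points where the adjusted p was at most 0.05. Most full-length and delFG1 points lie left of 0, the delFG2 points of Msr1, Mrc1 and Ctss lie between them and 0, and Ccr2 lies right of 0 in all 3; the 3 sets of points share the empty vector arrays.

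Other genes of the same pathways, from lists that hold none of the 38, were counted in the same fits. These lists and the marker lists were, like the 38 genes, chosen with earlier results of these data known. Their counts are therefore no independent support. Against the empty vector with full-length NUP98-HOXA9, 13 of 20 measured lysosome genes fell and 0 rose with the block, with a median of -0.25; of all probe sets 4.43% were lower and 2.18% higher, which is the share to read against each list count of this comparison. Among them were Ctsk, a collagen-cleaving cysteine protease (-1.38, adjusted p = 3.72e-05), Atp6v0d2, a subunit of the proton pump that acidifies lysosomes (-1.14, 2.46e-05), Npc1, which moves cholesterol out of lysosomes (-0.53), and Psap, the precursor of the saposins (-0.31). In the list of liver X receptor targets and lipid handling 5 of 12 fell and 2 rose, with a median of -0.04. Of the 12 differences 6 were below 0 and 6 above, up to 0.42. Abcg1, a cholesterol exporter and target of Nr1h3, fell by 0.60, and Rxra, the partner receptor, by 0.71. Plin2, which coats lipid droplets, fell by 0.51 and Lpl, the lipoprotein lipase, by 0.43. Abca1, another exporter and target, differed by 0.01. The part of Nr1h3 in these differences was not tested. Of 18 Toll-like receptor signalling genes 7 fell, with Tlr7 (-0.98) and the signalling brake Tnfaip3 (-0.86) among them, and Ly86, a partner of the receptor-like Cd180, rose by 1.36 while Cd180 itself fell by 0.46. Without the block 0 genes of these 3 lists passed by limma, while 11, 6 and 7 of them had an unadjusted p under 0.05 (9.54% of all probe sets).

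Of 19 monocyte growth factors, receptors and transcription factors, 7 fell and 0 rose with the full-length fusion and the block. Zeb2, a repressor needed in monocyte development, fell by 0.69, Klf4, a factor of monocyte differentiation, by 0.60, Csf1r, which receives the growth signal CSF1, by 0.51, and Egr2 by 0.47. Of 12 ITAM signalling genes 3 fell: the kinases Fgr (-0.72) and Syk (-0.41) and the adaptor Blnk (-0.43). Of 18 other monocyte and macrophage markers 7 fell, among them Cd300lf, an inhibitory lipid receptor (-0.89), Ms4a7 (-0.69), Emilin2 (-0.48) and Itgam, the integrin CD11b (-0.45). Without the block 0 genes of these 3 lists passed by limma, and 6, 3 and 5 had an unadjusted p under 0.05 (9.54% of all probe sets). With delFG1 against the empty vector the counts with the block were 10 lower of 20 for the lysosome, 5 of 12 for liver X receptor targets, 8 of 18 for Toll-like receptor signalling with 1 higher, 5 of 19 for growth and transcription factors with 1 higher, 1 of 12 for ITAM signalling and 8 of 18 for other markers with 1 higher, where 4.18% of all probe sets were lower and 1.94% higher. The ITAM gene was Fgr, which fell by 1.18 with delFG1. With delFG2 the counts lower were 3, 2, 3, 0, 0 and 1 in the same order, where 0.399% of all probe sets were lower. Against the full-length fusion, delFG2 was higher for Ctsk (0.72), Atp6v0d2 (0.50) and Itgam (0.32) with the block, where 0.298% of all probe sets were higher. In the same lists delFG1 gave 0 calls by limma against full-length, where 0.078% of all probe sets passed with the block and 0.00918% without it. An unadjusted p under 0.05 without the block was found for 1 of 12 ITAM and 1 of 19 growth and transcription factor genes. Over all probe sets that share was 2.07%.

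Markers of other blood cells moved beside the 38 genes, with the block. With full-length against the empty vector, 8 of 17 neutrophil granule genes fell and 1 rose, 4 of 12 mast cell and basophil genes fell and 1 rose, 3 of 6 eosinophil genes fell, and 4 of 5 megakaryocyte genes fell and 1 rose. Olfm4 and Cxcr2, products of mature neutrophils, fell by 1.503 and 1.09, the IgE receptor gene Fcer1a fell by 1.31 and the eosinophil granule gene Prg2 by 0.54, while the neutrophil and progenitor protease gene Prtn3 rose by 0.24. The platelet chemokine gene Ppbp fell by 1.63 and passed also without the block (adjusted p = 0.0203 by limma). The other lists gave 2 higher of 13 for dendritic cells and MHC class II, 1 lower of 9 for B cells, 1 higher of 9 for T and NK cells, 1 lower of 7 for erythroid cells, 2 higher of 8 for stem and progenitor cells and 1 higher of 10 for stroma and endothelium. Beside these marker counts, 4.43% of all probe sets were lower and 2.18% higher. A single call was 11.1% of the B cell list and of the T and NK cell list. It was 14.3% of the erythroid list and 10% of the stroma and endothelium list. The genes called were Il7r (-1.01), Thy1 (0.59), Rhag (-0.79) and Lepr (0.46), in that order. In lists this small 1 gene makes up such a share, so a single call is not read as a result about its list.

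With delFG1 against the empty vector 7 neutrophil genes fell and 2 rose, and 7 mast cell, 3 eosinophil and 4 megakaryocyte genes fell, where 4.18% of all probe sets were lower and 1.94% higher. With delFG2 against the empty vector 0 genes of these 4 lists passed by limma, against 0.505% of all probe sets with the block (0.399% lower). Without the block 2 mast cell and 3 megakaryocyte genes had an unadjusted p under 0.05, as did 4.43% of all probe sets. Against the full-length fusion, 4 neutrophil genes, 1 mast cell gene (Fcer1a), 1 eosinophil gene (Ear6), 1 megakaryocyte gene (Ppbp) and 1 erythroid gene (Rhag) were higher with delFG2 with the block, where 0.298% of all probe sets were higher. In the same fit 2 of 8 stem and progenitor genes (Meis1 and Cd34) were lower, where 0.468% of all probe sets were called in either direction. Meis1 was lower with delFG1 against full-length too (-0.82, adjusted p = 0.0143 by limma with the block). It was 1 of these 8 genes, where 0.078% of all probe sets were called in either direction. By number, 12 neutrophil genes were higher on the arrays numbered 2 and 1 lower, with 5 and 1 of the mast cell and 3 and 0 of the eosinophil genes, where 6.43% of all probe sets were higher and 4.75% lower.

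The intensities of each marker list were also summed and put on the log2 scale. The brightest probe sets weigh most in such a sum, so it does not give the size of the shift of each gene. For neutrophil genes the sum was 16.28 and 16.45 with the empty vector, 16.10 and 16.32 with full-length, 16.10 and 16.33 with delFG1 and 16.32 and 16.43 with delFG2, so the groups overlapped. The mast cell sum was 14.10 and 14.20, 13.91 and 14.15, 13.59 and 13.91, and 14.01 and 14.24 in the same order, lower on both delFG1 arrays than on either empty vector array. Eosinophil genes summed to 12.51 and 13.45, 12.11 and 12.75, 11.97 and 12.71, and 12.36 and 13.15, with the higher value on array 2 of every group. Megakaryocyte genes summed to 11.32 and 11.27, 10.74 and 10.53, 10.49 and 10.43, and 11.31 and 11.00, where the full-length and delFG1 arrays were below both other groups. The lowest intensity of any probe set on any array was 18.3, so no marker could be at 0. Whether the marker genes were expressed was not tested. The part of such other cells in the differences of the 38 genes was not tested.

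**Figure D5:**
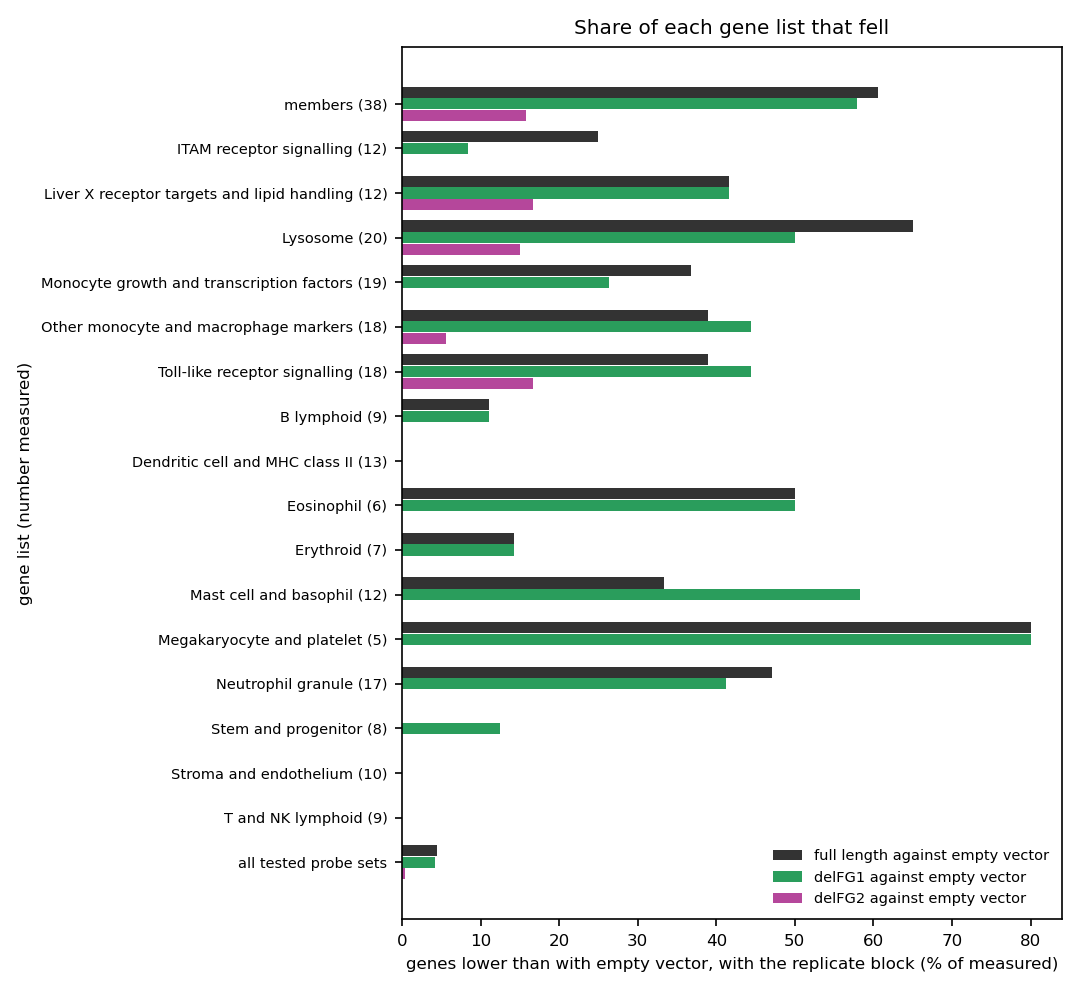
Share of the measured genes of each list that were lower than with the empty vector in the fit with the replicate block (horizontal axis, percent; number measured in brackets), for full-length, delFG1 and delFG2, with the share over all tested probe sets in the lowest row. The 38 genes stand at 60.5%, 57.9% and 15.8%, and all tested probe sets at 4.43%, 4.18% and 0.399%; a blank means that 0 genes were lower.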

How the data were processed

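The deposited values are linear intensity values of 28853 probe sets on 8 arrays; not given in the sources used here is how the authors corrected, summarised and normalised them. Per the labels' protocols, RNeasy columns gave the RNA, which was labelled with the GeneChip WT Terminal Labeling Kit. Probe sets were named from the platform annotation: 21789 carried 1 symbol and were tested, 1621 carried several and 5443 none. All 38 genes matched RefSeq by Entrez number. Values were analysed as log2(intensity + 1) without further normalisation, with limma 3.58.1 in R 4.3.3 (lmFit, and eBayes with an intensity trend) on 4 group means; p-values are two-sided, adjusted by Benjamini-Hochberg within each of the 6 comparisons. Residual and prior degrees of freedom were 4 and 4.62.

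A second fit had the array number as a replicate block (3 and 7.78). Arrays with the same number deviated from their group means together in all 6 pairs of groups (r between 0.401 and 0.640, and between 0.438 and 0.870 over the 38 genes), so the numbers of the labels were taken to pair the arrays. The script was tested on simulated data.

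The 38 genes and all lists were chosen with earlier results of these data known. Named were all genes of the set called in either fit (at least 3 a comparison, with the smallest p), and up to 4 called genes of each further list; Abca1 was named after its value was seen. The number of arrays limits the precision.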

Additional observations from a re-analysis of the deposited data

How the results depend on the processing

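Without the replicate block, 0 of the 38 genes passed in each of the 6 comparisons under every setting tried: centring each array on its median, quantile normalisation, a pseudocount of 16, a filter at a mean log2 value of 6, all probe sets of a gene averaged, no intensity trend, only the arrays compared, and each array left out. All calls among the 38 genes rest on the block. What the array numbers stand for was not tested. Among the marker genes, Ppbp passed without the block against the empty vector with full-length (adjusted p = 0.0203 by limma) and delFG1 (0.0187). Rhag did so with delFG1 (0.0318). With the block alone, with it and centring, quantile normalisation, a pseudocount of 16, no trend or the filter (in that order; all but the first 2 chosen after seeing the data), the genes called were 24, 24, 23, 24, 20 and 24 for full-length against empty vector, 23, 24, 23, 23, 20 and 25 for delFG1 against empty vector, 6, 9, 2, 6, 0 and 9 for delFG2 against empty vector, 3, 4, 1, 2, 1 and 4 for delFG2 against full-length, and 3, 1, 1, 3, 0 and 4 for delFG2 against delFG1; delFG1 against full-length gave 0 throughout. With the block and each array left out in turn they ranged from 13 to 27, 15 (19 without the delFG1 array numbered 1) to 28, 0 to 12, 0 to 8 and 0 to 10 in the same order. Beyond the 2 fits side by side above, the share of all probe sets called was not computed. No difference called with the block changed sign under these settings. Differences without a call did: with 1 array left out and no block, 9 of 14 for full-length against empty vector (Cd14 0.06 and Clec4n 0.0089 without the empty vector array numbered 2), 3 of 15 for delFG1 and 12 of 32 for delFG2 against empty vector, 29 of 38 for delFG1 and 16 of 35 for delFG2 against full-length, and 14 of 35 between the mutants. The 22 calls between array numbers stayed at 21 or 22 with centring or quantile normalisation, and the pairing held in 6 of 6 pairs. The number of arrays, and the low signals of C1qa, C1qb, C1qc and Cd163, limit what could be seen.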
